A study of Mus musculus with 4 samples.

Results

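Proteoglycans are proteins that carry glycosaminoglycan chains, and 54 genes for their core proteins and for the enzymes that build, sulfate and edit those chains were followed here in sorted cells of the developing mouse prostate. The genes were listed by symbol according to their known role, with 14 core proteins and 40 enzymes, and all 54 were found among the 49671 genes of the deposited table. RNA-seq had been performed on basal and luminal epithelial cells from the tips of the ventral prostate lobe, with 2 libraries per cell type, labelled basal 1, basal 3, luminal 3 and luminal 2. Donors were untreated CD-1 mice at postnatal day 10 to 13 per the labels, while the methods end the range a day earlier, and lobes of several mice were used, with no statement of how they were divided among the libraries. Tissue was digested with collagenase, cells positive for CD45, CD31 or CD140a were gated out, and cells high for EpCAM were split into CD49f high (basal) and CD49f low (luminal). The comparison asks how gene expression differs between basal cells, which are multipotent at this age, and the luminal cells that arise from them. Nothing in the labels states that the libraries of a cell type came from separate animals or sorts, so the p-values below measure only the spread between these libraries, which may be technical.

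A heparan or chondroitin sulfate chain is attached to a serine of a core protein through a short linker of 4 sugars, and is then extended either as heparan sulfate or as chondroitin sulfate, part of which becomes dermatan sulfate by epimerization of its uronic acid. Sulfotransferases then place sulfate groups along the chain, and these sites bind growth factors, chemokines and matrix proteins. Perlecan and agrin are heparan sulfate cores of basement membranes, syndecans and glypicans sit in the plasma membrane, and versican, decorin, biglycan and lumican belong to the interstitial matrix made mostly by stromal cells. Basal cells of the prostate rest on the basement membrane between the epithelium and that stroma.

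Values are normalized read counts scaled by the authors to a common total, so that a read is worth 6.26 units in basal 1, 6.5 in basal 3, 19.4 in luminal 3 and 31.2 in luminal 2. The libraries correspond to 3194268, 3078120, 1036689 and 643267 reads on genes, and a count of 3 reads, used as the floor below which a level is not read, equals 18.8, 19.5, 58.1 and 93.5 units. The luminal libraries are the shallower pair, so low luminal values are the less precise. The sort genes followed the labels, with Itga6 (CD49f) at 20222 and 16382 in the basal libraries and 4337 and 3584 in the luminal libraries, Krt5 at 18481 and 15824 against 77 and 93, and Krt8 at 3012 and 4287 against 13302 and 8320. RNA of fibroblasts and smooth muscle was present in all 4 libraries. The 13 fibroblast markers, none of which was at 0 anywhere and 12 of which were above 3 reads in every library, summed to 67875 and 181738 in basal 1 and 3 and to 91534 and 221994 in luminal 3 and 2. The 6 smooth muscle markers summed to 30687 and 53240 in basal 1 and 3 and to 9984 and 61015 in luminal 3 and 2. Pdgfra, the gene of the excluded antigen CD140a, stood at 3307 and 4144 in the basal and 2575 and 8383 in the luminal libraries. Endothelial, immune and glial markers were low, with sums of 600 to 1776, 174 to 927 and 77 to 987. In sorted bulk samples fewer cells of a type and less RNA per cell cannot be told apart.

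Most of the proteoglycan genes had higher values in basal than in luminal cells. The filter of the study, read as at least 10 units in every library and an average of at least 20 in at least 1 of the groups, kept 51 of the 54 genes and left out Hs3st6, Chst7 and Hpse, and a reading that asks this of both groups kept 46. Of these 51, 24 had a luminal to basal ratio of group averages of 0.5 or less, where 16.3% of all 18737 genes kept had one, and 2 had a ratio of 2 or more, where 18.3% of all genes had one. In 33 of the 51 both basal libraries lay above both luminal libraries (27.3% of all genes), in 2 both luminal libraries lay above both basal (23.6% of all genes), and in 16 the groups overlapped. The median log2 fold change, luminal minus basal on log2 of the normalized value plus 1, was −1.0 over the 51 genes and −0.10 over all genes kept, with 41 of the 51 below 0, as were 54.1% of all genes kept. Of the 43 members that averaged 100 or more over the 4 libraries, 22 had a ratio of 0.5 or less and 0 a ratio of 2 or more. Of the 12544 genes at that average, 12.8% and 11.4% had such a ratio. A gene can reach this average through 1 group alone, as Hs3st1 and Hs3st3a1 did. With both groups required to pass the filter, the median was −0.93 over 46 members and −0.08 over all 14953 genes kept. Among the 51 genes, the medians were −1.11 over 14 core proteins and −1.0 over 37 enzymes.

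With 2 libraries a side, the share of all genes called differed between tests, at 0.694% for limma, 5.06% for edgeR and 4.37% for DESeq2. Agrn and Chst11 had a limma adjusted p under 0.05 and were higher in basal cells, where 0.438% of all genes were called in that direction, and 0 of the 51 were called higher in luminal cells, where 0.256% of all genes were. At an unadjusted p under 0.05 limma called 17 members higher in basal cells, where 10.7% of all genes were, and 1 higher in luminal cells, where 7.82% were. edgeR on the reads recovered from the normalized values called 11 members higher in basal cells, against 2.7% of all genes, and 0 higher in luminal cells, against 2.36%. These 11 were Agrn, Vcan, Dcn, Sdc1 and Sdc4 among the cores and Ext1, Ext2, Hs3st3b1, Chst11, Chst15 and Ust among the enzymes. DESeq2 on the same reads called 10 higher in basal cells, with Hspg2 and without Ext2 and Ust, against 2.22% of all genes, and 0 higher in luminal cells, against 2.15%. An exact permutation test of 2 libraries against 2 cannot go below p = 0.333, so none is given for single genes.

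**Figure D1:**
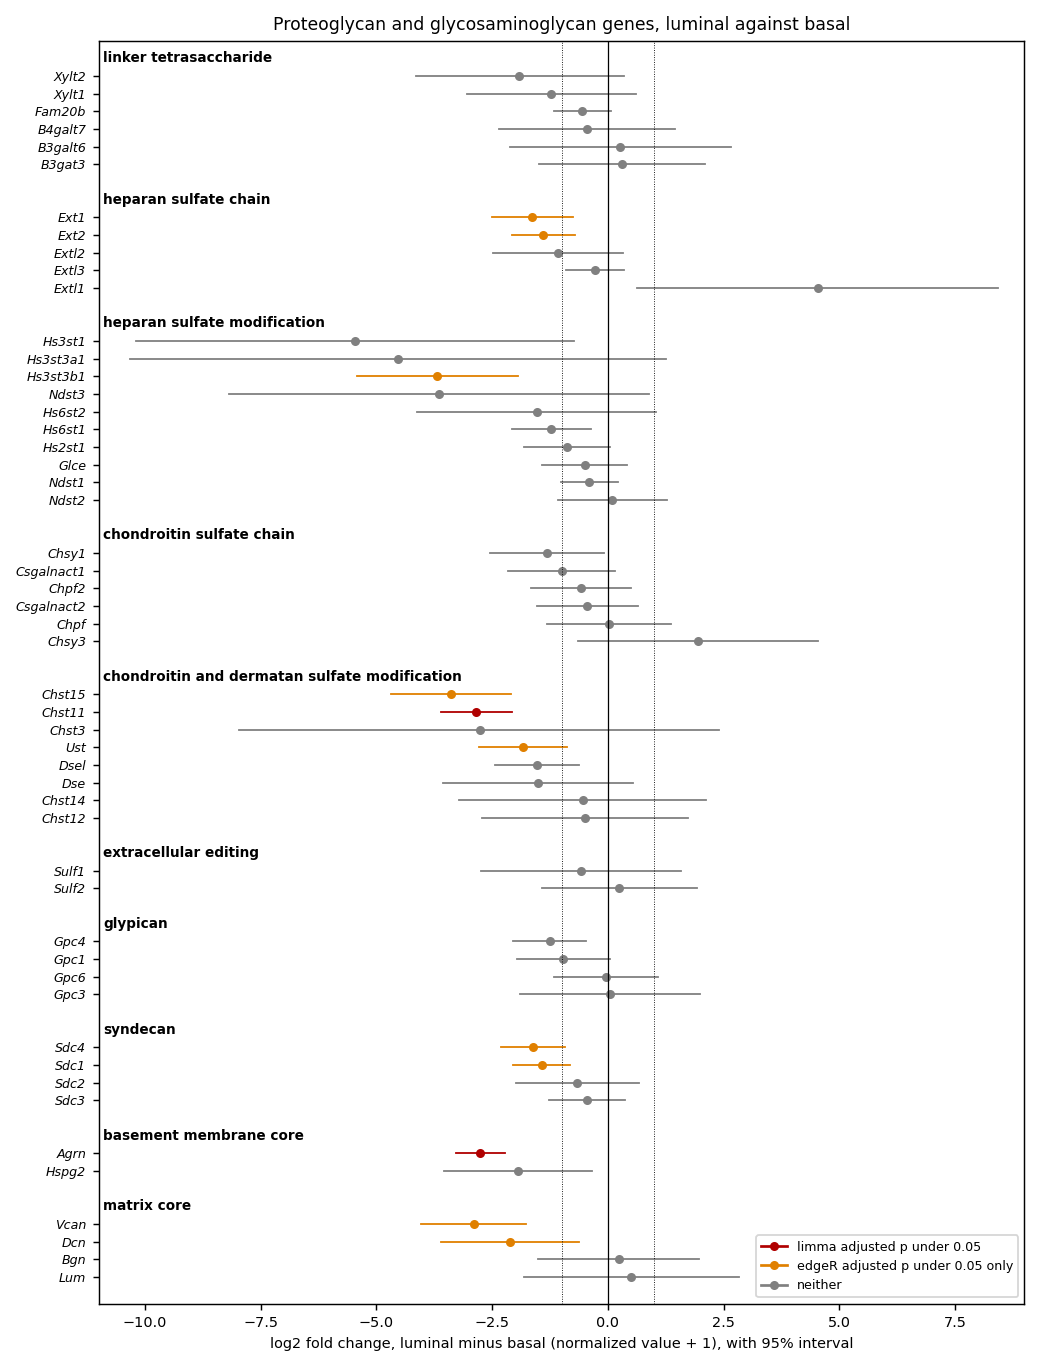
Log2 fold change, luminal minus basal, of the 51 genes kept, grouped by role, with the 95% interval from limma as a bar (2 libraries per cell type) and dotted lines at a 2-fold difference. Points left of 0 are higher in basal cells, 41 of 51, and red marks Agrn and Chst11, the 2 genes with a limma adjusted p under 0.05.

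Agrn, the gene of agrin, a large heparan sulfate core of basement membranes that also binds laminin and dystroglycan, had the smallest standard error of the 51 genes. It stood at 17554, 17376, 2769 and 2400 in basal 1, basal 3, luminal 3 and luminal 2, with the replicates of each cell type close together and the groups far apart. Its luminal to basal ratio was 0.148, with a log2 fold change of −2.76 ± 0.21 (SE) and a limma adjusted p of 0.0274 (edgeR adjusted p = 0.00042). Hspg2, the gene of perlecan, which cross-links laminin and collagen IV networks, stood at 20685, 26490, 3098 and 11904. Both luminal libraries lay below both basal libraries but were far from each other, and the log2 fold change of −1.95 ± 0.64 passed DESeq2 (adjusted p = 0.0381) but neither limma (adjusted p = 0.196) nor edgeR (adjusted p = 0.0721). It was −0.98 without luminal 3 and −2.92 without luminal 2, whereas that of Agrn stayed between −2.86 and −2.66 whichever library was left out.

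The promoter of Agrn and that of Chst11, the other gene past the limma threshold, are shown because limma called these 2 genes. Agrn (ENSMUSG00000041936) lies on chromosome 4, minus strand, at 156165290 to 156197488 of GRCm38, and Chst11 (ENSMUSG00000034612) on chromosome 10, plus strand, at 82985498 to 83195900. The 250 bases before each RefSeq start site (GRCm38.p6, chr4:156197489-156197738 for Agrn and chr10:82985247-82985496 for Chst11) read as follows on the strand of the gene, with matches of the GC box GGGCGG, on either strand, in capitals.
Agrn: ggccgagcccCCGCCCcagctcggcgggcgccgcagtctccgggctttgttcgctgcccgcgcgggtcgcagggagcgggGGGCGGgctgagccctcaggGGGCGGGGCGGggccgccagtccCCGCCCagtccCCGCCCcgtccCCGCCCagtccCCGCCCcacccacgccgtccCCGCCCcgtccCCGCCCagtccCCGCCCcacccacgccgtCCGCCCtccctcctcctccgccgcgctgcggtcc
Chst11: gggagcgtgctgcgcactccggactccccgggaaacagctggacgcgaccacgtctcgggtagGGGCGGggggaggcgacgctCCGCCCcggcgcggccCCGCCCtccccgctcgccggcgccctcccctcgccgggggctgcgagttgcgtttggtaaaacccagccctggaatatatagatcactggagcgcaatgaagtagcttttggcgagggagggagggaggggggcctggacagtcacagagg
The Agrn window held 12 such matches, some overlapping, at 83.6% G and C, and the Chst11 window held 3 at 70.0%. RefSeq promoters were matched for 41 of the 54 genes, several with more than a single start, and 34 of their 49 windows (69.4%) held GGGCGG on either strand, against 55.2% of 14444 windows of genes kept by the filter and 32.7% of 32851 windows in all. The AP-1 motif TGANTCA was in 1 of the 49 windows (2.04%) and in 4.79% of those of genes kept, and TATAAA was in 2 (4.08%) and in 6.99%. A match is a description of these letters only.

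Among the syndecans, transmembrane cores that carry heparan sulfate near the cell surface, Sdc1 and Sdc4 differed between the cell types and Sdc2 and Sdc3 did not pass any test. Sdc1, the main syndecan of epithelia, stood at 3996, 3157, 1394 and 1247, and Sdc4, a syndecan of focal adhesions, at 4002, 5443, 1336 and 1745. For both, the lowest basal value was more than any luminal value by a wide margin. The log2 fold changes were −1.43 ± 0.24 for Sdc1 and −1.61 ± 0.27 for Sdc4, which passed edgeR (adjusted p = 0.0202 and 0.0125) and narrowly missed limma (adjusted p = 0.0687 and 0.0688). Sdc2, the syndecan typical of mesenchymal cells, stood at 1691, 1871, 658 and 1932, so that luminal 2 was above both basal libraries and luminal 3 far below them. Sdc3 stood at 745, 1052, 581 and 717, with the groups apart by little (log2 fold change −0.46 ± 0.33). The ratio of Sdc1 to Sdc2 was accordingly 2.36, 1.69 and 2.12 in basal 1, basal 3 and luminal 3 and 0.645 in luminal 2.

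The glypicans, heparan sulfate cores held in the membrane by a lipid anchor, fell into pairs. Gpc4 stood at 2186, 1611, 658 and 935, and Gpc1, a glypican that binds fibroblast growth factors, at 933, 1468, 465 and 779. Both had all basal values above all luminal values, with log2 fold changes of −1.26 ± 0.31 for Gpc4 (limma adjusted p = 0.105, edgeR adjusted p = 0.0618) and −0.96 ± 0.40 for Gpc1 (limma adjusted p = 0.285). For Gpc1, 18.9% of the exon length overlaps Ankmy1 on the opposite strand, and since the use of strand in counting is not stated, reads there cannot be told apart. Gpc3, a glypican of embryonic mesenchyme whose loss causes overgrowth, stood at 1227, 4878, 1549 and 4113, and Gpc6 at 2430, 3807, 1994 and 4394. In both the higher library of each cell type was basal 3 or luminal 2, the groups overlapped, and the log2 fold changes were 0.04 ± 0.77 and −0.04 ± 0.45, with 95% intervals of −1.89 to 1.98 and −1.17 to 1.09.

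The 4 matrix cores split in the same manner. Vcan, the gene of versican, a large hyaluronan-binding chondroitin sulfate core, stood at 31733, 36474, 2904 and 7167. Dcn, the gene of decorin, a small leucine-rich core that binds collagen fibrils, stood at 45830, 47724, 5770 and 20256. For both genes the basal libraries were close to each other and lay above both luminal libraries, of which luminal 2 was the higher. The log2 fold changes were −2.90 ± 0.45 for Vcan (limma adjusted p = 0.0659, edgeR adjusted p = 0.00192) and −2.11 ± 0.60 for Dcn (limma adjusted p = 0.143, edgeR adjusted p = 0.0397). Without luminal 3 they were −2.25 and −1.21, and without luminal 2 they were −3.55 and −3.02. Bgn, the gene of biglycan, a close relative of decorin, stood at 2655, 8555, 3485 and 8975, and Lum, the gene of the keratan sulfate core lumican, at 269, 1390, 484 and 1558. In both genes basal 3 and luminal 2 were high and basal 1 and luminal 3 low, and the log2 fold changes were 0.23 ± 0.69 and 0.50 ± 0.92.

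**Figure D2:**
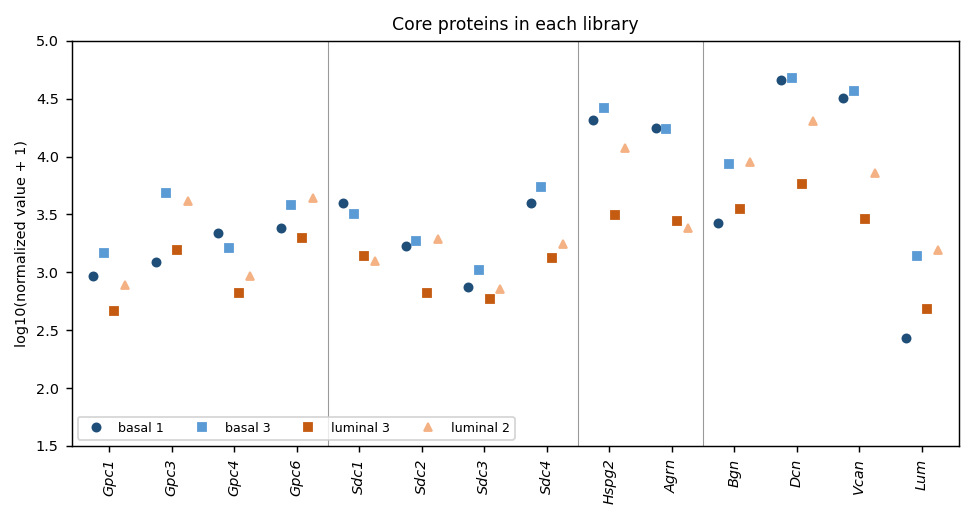
Normalized values of the 14 core proteins in each library, as log10 of the value plus 1, with a point per library and grey lines between glypicans, syndecans, basement membrane cores and matrix cores. Blue basal points lie above orange luminal points for Agrn, Vcan, Dcn, Hspg2, Sdc1 and Sdc4, while for Gpc3, Gpc6, Bgn and Lum basal 3 and luminal 2 are the high libraries.

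The levels of Bgn, Lum and Gpc3 ran beside those of fibroblast collagen, a pattern noticed after their values were seen. Col1a1, the main fibrillar collagen chain of fibroblasts, stood at 17210, 59670, 22886 and 56436. The ratio of Bgn to Col1a1 was 0.154, 0.143, 0.152 and 0.159 in basal 1, basal 3, luminal 3 and luminal 2, and that of Gpc3 to Col1a1 was 0.0713, 0.0817, 0.0677 and 0.0729. Both ratios, unlike that of Lum to Col1a1 (0.0156, 0.0233, 0.0211 and 0.0276), were thus nearly the same in all 4 libraries, although Col1a1 itself varied widely between them, as was the ratio of Col3a1, another fibroblast collagen, to Col1a1 (1.28, 0.947, 1.09 and 1.30). Not all fibroblast markers kept such a ratio: Fbn1, a microfibril gene, to Col1a1 was 0.169, 0.093, 0.455 and 0.443, and Thy1, a surface marker, to Col1a1 was 0.0433, 0.0205, 0.022 and 0.00773. Gpc6, whose groups also overlapped, did not keep it (0.141, 0.0638, 0.0871 and 0.0779), and neither did the cores that were higher in basal cells. Dcn to Col1a1 was 2.66, 0.80, 0.252 and 0.359, Vcan to Col1a1 was 1.84, 0.611, 0.127 and 0.127, and Hspg2 to Col1a1 was 1.2, 0.444, 0.135 and 0.211. Basal 1, the library with the lowest fibroblast sum, had the highest of these ratios and held Dcn and Vcan at nearly the level of basal 3. Over all 51 genes luminal 2, whose fibroblast and smooth muscle sums were 221994 and 61015, was above luminal 3, whose sums were 91534 and 9984, in 42, where 52.7% of all genes kept were, and basal 3 was above basal 1 in 25, where 42.4% of all genes kept were. The part of stromal RNA in the values of the matrix cores was not tested.

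**Figure D3:**
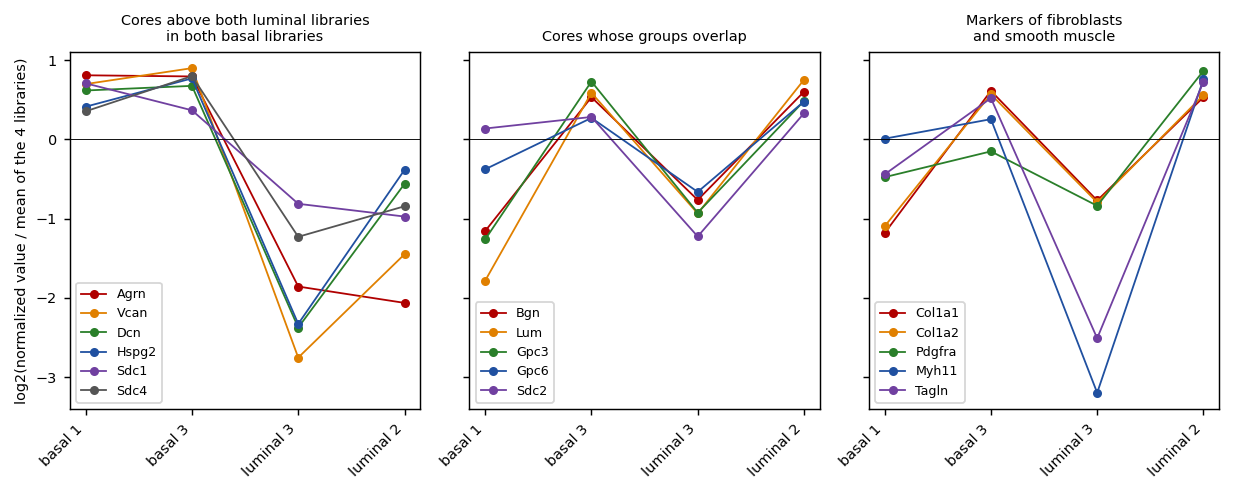
Normalized value of each gene divided by its mean over the 4 libraries, on a log2 axis, for cores higher in both basal libraries (left), cores whose groups overlap (centre) and markers of fibroblasts and smooth muscle (right). Bgn, Lum and Gpc3 follow Col1a1 and Col1a2 through the libraries, whereas Agrn and Vcan are high in both basal and low in both luminal libraries.

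The linker enzymes, which lay the sugars shared by both kinds of chain, had 2 of 6 genes at a ratio of 0.5 or less (16.3% of all genes) and none past a test. Fam20b, a kinase that phosphorylates the first xylose, stood at 2467, 2053, 1413 and 1683, the highest of the 6 per kilobase of exon (281 in basal 1 and 161 in luminal 3), with a log2 fold change of −0.55 ± 0.25. Xylt1 and Xylt2, the xylosyltransferases that start this linker, stood at 326, 559, 97 and 343 and at 276, 221, 136 and 31. Luminal 3 was low for Xylt1 and luminal 2 for Xylt2, the latter with 1 read, so the order of the isoforms within luminal cells cannot be read. B3gat3, the glucuronyltransferase that completes the linker, stood at 182, 91, 116 and 218 with overlapping groups. B4galt7 and B3galt6, the linker galactosyltransferases, averaged under 100 units and ranged from 38 to 106.

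Heparan sulfate is polymerized by a complex of Ext1 and Ext2, and both were higher in basal cells. Ext1 stood at 3476, 3579, 833 and 1558 and Ext2 at 1547, 1332, 523 and 561, with no overlap and with the lowest basal value of Ext1 more than the highest luminal value. The log2 fold changes were −1.63 ± 0.35 and −1.40 ± 0.27 (limma adjusted p = 0.0741 and 0.0705, edgeR adjusted p = 0.0199 and 0.0427). Extl3, which adds the first N-acetylglucosamine and so commits the linker to heparan sulfate, stood at 1271, 1163, 1007 and 997, a log2 fold change of only −0.28 ± 0.25 with a 95% interval of −0.90 to 0.34. The ratio of Ext1 to Extl3 was therefore 2.73 and 3.08 in the basal and 0.827 and 1.56 in the luminal libraries. Extl2, a related transferase that can stop elongation, stood at 369, 221, 116 and 156, with all basal values above the luminal values (log2 fold change −1.08 ± 0.56). Extl1 lay the other way, at 13, 0, 58 and 125, but on 2, 0, 3 and 4 reads, and the pooled ratio of luminal to basal reads was 13.1 with a 95% counting interval of 2.49 to 129. It is outside the genes named for their level and is given, like Chsy3 below, because these were the only 2 of the 51 at a ratio of 2 or more.

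The enzymes that modify heparan sulfate act in order, beginning with N-sulfation. Ndst1, the main N-deacetylase and N-sulfotransferase, stood at 3438, 2572, 2304 and 2213, with a log2 fold change of −0.40 ± 0.25. Ndst2 stood at 257, 448, 426 and 312 with overlapping groups. Glce, the epimerase that turns glucuronic into iduronic acid, stood at 752, 611, 387 and 592. None of these 3 genes reached a 2-fold ratio, and the 95% intervals were −1.01 to 0.22 for Ndst1, −1.07 to 1.27 for Ndst2 and −1.42 to 0.42 for Glce. O-sulfation follows. Hs2st1, the 2-O-sulfotransferase of iduronic acid, stood at 1697, 1455, 620 and 1153, and Hs6st1, a 6-O-sulfotransferase, at 1666, 1325, 503 and 810. In both, the groups were apart and luminal 3 was lowest. The log2 fold changes were −0.89 ± 0.37 for Hs2st1 (limma adjusted p = 0.281) and −1.22 ± 0.34 for Hs6st1 (limma adjusted p = 0.143, edgeR adjusted p = 0.0893).

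The 3-O-sulfotransferases, which add the rare last sulfate that creates binding sites for antithrombin or for herpesvirus glycoprotein D, were counted on few luminal reads, and Hs3st1 and Hs3st3a1 passed the filter through the basal libraries alone, so their ratios are not ranked. Hs3st3b1 stood at 839, 494, 77 and 31, which is 134 and 76 reads in the basal and 4 and 1 in the luminal libraries. It passed edgeR (adjusted p = 0.00803) and missed limma (log2 fold change −3.69 ± 0.69, adjusted p = 0.0693), and the pooled luminal to basal ratio of reads was 0.0889 with a 95% counting interval of 0.0286 to 0.211. Hs3st1 stood at 119, 513, 0 and 31, or 19, 79, 0 and 1 reads, so that the basal libraries were themselves far apart (edgeR adjusted p = 0.0719, limma adjusted p = 0.217). Its pooled ratio was 0.0381, with an interval of 0.000955 to 0.217. Hs3st3a1 stood at 369, 182, 0 and 125, and this value is uncertain because 42.75% of its 50-base windows recur in other genes, chiefly F930015N05Rik on the opposite strand and Hs3st3b1. The luminal counts of all 3 genes were at or near the floor. Hs6st2 and Ndst3 averaged under 100 units and ranged from 0 to 132, and Hs3st6 did not pass the filter.

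The 6 enzymes that start and extend chondroitin sulfate had a median log2 fold change of −0.52, with 1 gene at a ratio of 0.5 or less and 1 at 2 or more, shares near those of all genes (16.3% and 18.3%), and none passed a test. Csgalnact1 and Csgalnact2, which commit the linker to chondroitin sulfate, stood at 332, 351, 155 and 187 and at 958, 1585, 658 and 1247, the former with the groups apart (log2 fold change −1.0 ± 0.46) and the latter overlapping. Chsy1, a chondroitin synthase, stood at 607, 500, 155 and 312 (log2 fold change −1.32 ± 0.49, limma adjusted p = 0.242). Its partner Chpf, the polymerizing factor, stood at 413, 1104, 581 and 810 and overlapped, and Chpf2 stood at 376, 435, 329 and 218. For Chpf2, 44.1% of the exon length lies opposite Smarcd3, so its reads are uncertain. Chsy3, a further synthase, was the sole gene of these 6 with both luminal libraries higher, at 13, 52, 116 and 93, on 2, 8, 6 and 3 reads (pooled ratio 3.36, 95% counting interval 1.21 to 9.20).

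Among the 9 genes for sulfation and epimerization of chondroitin and dermatan sulfate, 8 passed the filter, Chst3 through the basal libraries alone. All 8 had a log2 fold change below 0, as had 54.1% of all genes kept. Their median was −1.68, against −0.10 over all genes kept. With a library left out the log2 fold change reached 0.22 for Chst3, 0.2 for Chst12 and 0.42 for Chst14, none of which was called. Chst11, the main chondroitin 4-O-sulfotransferase, stood at 1465, 1637, 213 and 218. The replicates of each cell type were close and the ratio was 0.139, with a log2 fold change of −2.84 ± 0.31 and a limma adjusted p of 0.041 (edgeR adjusted p = 0.00176), the only enzyme of the 37 to pass limma. Chst15, which adds a second sulfate to chondroitin 4-sulfate, stood at 745, 546, 58 and 62, on 119, 84, 3 and 2 reads. Its luminal counts were thus at or below the floor of 3 reads. Of its exon length 17.9% lies opposite Gm10584, which was at 0 in all 4 libraries. Chst15 passed edgeR (adjusted p = 0.00589) and not limma (log2 fold change −3.39 ± 0.52, adjusted p = 0.0648), with a pooled luminal to basal ratio of reads of 0.092 and a 95% counting interval of 0.0295 to 0.218. Ust, the 2-O-sulfotransferase of uronic acid in these chains, stood at 889, 786, 194 and 280 and likewise passed edgeR (adjusted p = 0.0326) and missed limma (log2 fold change −1.84 ± 0.38, adjusted p = 0.0705). All 3 sulfotransferases had the lowest basal value more than 2-fold above the highest luminal value. Of the remaining sulfotransferases Chst14, which sulfates dermatan, stood at 200, 52, 39 and 125 with overlapping groups, and Chst3, Chst12 and Chst7 averaged under 100 units and ranged from 0 to 138.

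Both epimerases that make dermatan from chondroitin sulfate had all basal values above the luminal values. Dsel stood at 764, 948, 252 and 343 and Dse at 426, 279, 58 and 249, with luminal 2 close to basal 3 for Dse. The log2 fold changes were −1.53 ± 0.36 for Dsel (limma adjusted p = 0.0892, edgeR adjusted p = 0.0646) and −1.51 ± 0.82 for Dse (limma adjusted p = 0.394), and neither passed a test.

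Neither extracellular editing enzyme that was kept passed a test. Sulf1, a 6-O-endosulfatase that removes sulfate from finished heparan sulfate, stood at 2017, 1572, 465 and 3054, the luminal libraries being the highest and the lowest of the 4. Its log2 fold change was −0.58 ± 0.86, with a 95% interval of −2.74 to 1.59, and it was −1.93 without luminal 2 and 0.78 without luminal 3. Sulf2 stood at 182, 630, 349 and 467, with a 95% interval of −1.42 to 1.92. Luminal 3, in which Sulf1 was lowest, also had the lowest smooth muscle sum, and Myh11, a smooth muscle myosin, stood at 13026, 15447, 1413 and 21907, which makes the ratio of Sulf1 to Myh11 0.155, 0.102, 0.329 and 0.139. The part of smooth muscle RNA in the values of Sulf1 was not tested. Hpse, the heparanase that cuts heparan sulfate chains, did not pass the filter and ranged from 0 to 31.

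**Figure D4:**
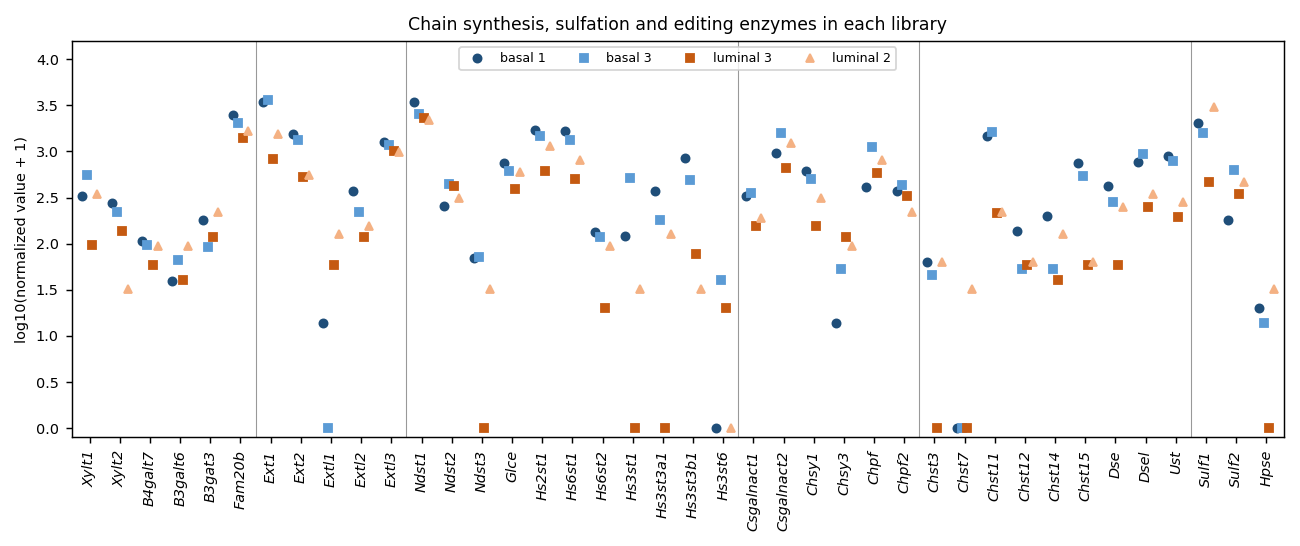
Normalized values of the 40 enzymes in each library, as log10 of the value plus 1, with a point per library and grey lines between linker, heparan sulfate chain, heparan sulfate modification, chondroitin sulfate chain, chondroitin and dermatan sulfate modification and editing enzymes. Chst11 has a wide gap between blue basal and orange luminal points, while Ndst1, Extl3 and Fam20b are close together. Luminal points of Chst15 and Hs3st3b1 lie under 100 units, at or near the floor of 3 reads, so the size of their gaps is not ranked.

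Levels of different genes were compared per kilobase of exon. In basal cells the order of group averages began with Dcn (8013 units per kilobase), Vcan (2358), Agrn (1881), Sdc4 (1854), Hspg2 (1649), Gpc3 (1135) and Sdc1 (939), and in luminal cells with Dcn (2229), Gpc3 (1052), Bgn (1021), Sdc4 (605), Hspg2 (524) and Gpc6 (497). Agrn averaged 278 per kilobase in luminal cells. Neighbours in these orders mostly do not differ beyond their spread. Agrn at 1891 and 1871, Sdc4 at 1571 and 2137 and Hspg2 at 1446 and 1852 per kilobase overlapped in the basal libraries, and Gpc3 at 576 and 1529 and Bgn at 571 and 1472 overlapped in the luminal libraries. Dcn was above each of the other 13 core proteins among the members in all 4 libraries. Among the enzymes Ext1 (430 and 443) and Ndst1 (415 and 311) had the highest group averages per kilobase in basal cells, and Ndst1 (278 and 267) in luminal cells, where Ext1 was at 103 and 193.

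Leaving out a library hardly moved the calls in size, with log2 fold changes of −2.86 to −2.66 for Agrn and −2.92 to −2.76 for Chst11. The limma adjusted p-values were then 0.0511 to 0.0925 and 0.072 to 0.136, from fits of 1 library against 2 in which the lone library is assumed to vary like the other group. The count of members at a ratio of 0.5 or less was 24 with all libraries and 17 without luminal 3. The median was then −0.45 over the members and 0.16 over all genes. Nuclear protein-coding genes take 76.0% and 74.7% of the basal but 57.3% and 64.2% of the luminal total. Rescaling to them gave a median of 0.22 over all genes and of −0.69 over the members, in place of −0.10 and −1.0. Under it 17 members had a ratio of 0.5 or less. For neither count of 17 is the share over all genes given.

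Other genes of the pathway were taken from 5 further lists. Of 25 other core proteins 19 passed the filter, 9 at a ratio of 0.5 or less (16.3% of all genes) and 5 at 2 or more (18.3%), and 2 were called by limma, both higher in basal cells (0.438%). Fmod, the gene of fibromodulin, a keratan sulfate core of collagen fibrils, stood at 8029, 6593, 77 and 218 (log2 fold change −5.80 ± 0.53, limma adjusted p = 0.0354), and Col18a1, a collagen of basement membranes that carries heparan sulfate, at 7928, 8087, 852 and 841 (−3.24 ± 0.21, limma adjusted p = 0.0186). Among genes averaging 100 or more, the next by size was Prelp, a leucine-rich protein that binds perlecan, at 8849, 3391, 290 and 1558 (−3.02 ± 0.87, limma adjusted p = 0.152, edgeR adjusted p = 0.0207). Fmod and Col18a1 were low in both luminal libraries, whereas Prelp in luminal 2 was less far below its lower basal value. Relative to Col1a1, Fmod was at 0.467 and 0.11 in the basal and 0.00336 and 0.00386 in the luminal libraries. Col15a1, a related proteoglycan collagen of the basement membrane zone, lay the other way at 1071, 4320, 8584 and 9175 (log2 fold change 2.04 ± 0.64, limma adjusted p = 0.182, edgeR adjusted p = 0.0874, DESeq2 adjusted p = 0.044). The other 4 genes at a ratio of 2 or more, named like Col15a1 after their values were seen, were Cspg5 at 50, 91, 116 and 249, Gpc2 at 50, 45, 116 and 93, Omd at 6, 0, 19 and 125 and Ncan at 6, 0, 58 and 31. The luminal counts of Gpc2, Omd and Ncan were 1 to 6 reads per library. edgeR called 6 of the 19 genes higher in basal cells (2.7% of all genes) and 0 higher in luminal cells (2.36%). Beside Fmod, Col18a1 and Prelp these were Cd44, Tgfbr3 and Spock1, also named after their values were seen.

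Of 8 other enzymes of heparan and chondroitin sulfate, only Pxylp1 passed the filter. It encodes the phosphatase that removes the phosphate which Fam20b adds to the linker xylose, and at 225, 188, 891 and 623 it had both luminal libraries above both basal (log2 fold change 1.85 ± 0.40, limma adjusted p = 0.0729, edgeR adjusted p = 0.0267), while Fam20b, at 0.685, had a ratio below 1. Of 14 genes for sulfate and sugar donors, 3 had a ratio of 0.5 or less (16.3% of all genes) and 2 a ratio of 2 or more (18.3%), with a median log2 fold change of −0.03. Slc35d1, a transporter of nucleotide sugars used for chondroitin sulfate, stood at 883, 760, 174 and 187 (−2.18 ± 0.36, limma adjusted p = 0.0671, edgeR adjusted p = 0.0162). Slc35b3, a transporter of the sulfate donor into the Golgi, stood at 251, 240, 736 and 436 and passed neither (1.2 ± 0.43, limma adjusted p = 0.229, edgeR adjusted p = 0.147). Uxs1, which makes UDP-xylose, stood at 257, 221, 232 and 0, with its gap resting on luminal 2 alone.

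Of 8 hyaluronan genes 7 passed the filter, 1 at a ratio of 0.5 or less (16.3% of all genes) and 2 at 2 or more (18.3%). Cemip, a protein that depolymerizes hyaluronan, stood at 495, 481, 2633 and 2493, with close replicates and the luminal libraries far above the basal, and was called by limma (log2 fold change 2.39 ± 0.25, adjusted p = 0.041) and edgeR (adjusted p = 0.00117). Has1, a hyaluronan synthase, at 38, 240, 232 and 436 and Hyal1, a hyaluronidase, at 463, 409, 77 and 374 passed neither. The gene at a ratio of 0.5 or less was Has3, another synthase, named after its values were seen. It stood at 438, 682, 252 and 187 (log2 fold change −1.33 ± 0.44, limma adjusted p = 0.204, edgeR adjusted p = 0.182). The 13 lysosomal enzymes that degrade glycosaminoglycans had a median of 0.41, with 0 genes at a ratio of 0.5 or less (16.3% of all genes) and 3 at 2 or more (18.3%). None was called by limma or edgeR, and none had an unadjusted limma p under 0.05. Arsg, a lysosomal sulfatase, stood at 69, 84, 213 and 187, Sgsh, the sulfamidase of heparan sulfate, at 182, 78, 349 and 218, and Idua, the iduronidase, at 125, 162, 232 and 343.

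**Figure D5:**
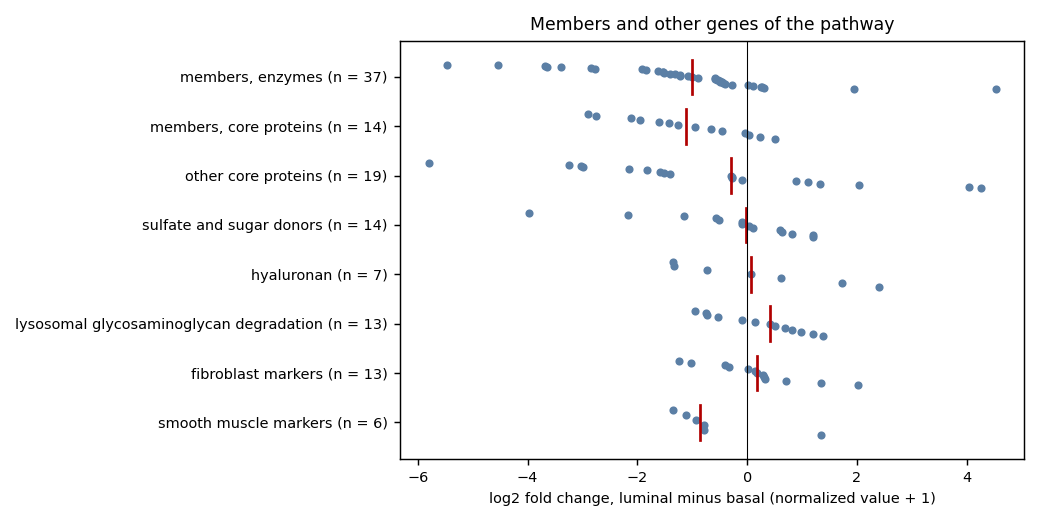
Log2 fold change, luminal minus basal, of each gene that passed the filter (points) and the median (red line) for members and for other lists, with the number of genes beside each name. The enzymes and core proteins have medians of −1.0 and −1.11, the other core proteins −0.3 and the sulfate and sugar donors −0.03. Those of the hyaluronan genes and lysosomal enzymes are 0.06 and 0.41. The fibroblast markers have a median of 0.17 and the smooth muscle markers 1 of −0.86.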

How the data were processed

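Sorted basal and luminal cells of the mouse prostate tip were profiled by bulk RNA-seq from Ovation Solo libraries, with 2 libraries per cell type. Per the methods, reads were mapped with STAR to GRCm38/mm10 and counted with HTSeq on the Ensembl annotation of that build. The authors scaled the gene counts to the same number of aligned reads in every library and deposited this signal per gene, rounded to whole numbers and without their low-value filter. Versions of these tools, the counting mode, use of strand and removal of duplicates are not given in the sources used here. All columns were mapped to a sample by title, leaving 0 unmapped.

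Low values (up to 60 reads) are multiples of what a read is worth, for 98.98% of them in basal 1, 97.88% in basal 3, 98.62% in luminal 3 and 98.23% in luminal 2, whose smallest values follow another step. Other steps occurred in 527 genes, 0 of them members. Division gave 643267 to 3194268 reads per library, which sets the precision: counting intervals are exact 95% binomial ones, and they and the floor of 3 reads express counting error alone.

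The methods do not say whether a gene may fail the filter in 1 group. Here genes entered the fit when all libraries of a group reached 10 and the group averaged 20, 18737 in all. limma 3.58.1 with a trended prior was fitted to log2 of the value plus 1 over all of them, with Benjamini-Hochberg adjustment, and ratios of group averages were read at 2 and 0.5 as in the study. edgeR 4.0.16 (quasi-likelihood, TMM) and DESeq2 1.42.0 on recovered reads, other filters, scalings and pseudocounts, and leaving out each library were alternatives. Scripts ran in R 4.3.3 and Python 3.11.15 (pandas 2.3.3, numpy 2.4.6, matplotlib 3.10.9 and scipy 1.17.1) and were tested on simulated data. GENCODE gene models of GRCm38 gave symbols, coordinates and exon lengths for 49326 of 49671 identifiers. Promoters came from RefSeq.

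Groups follow the cell type in the sample titles. The members and the 13 other lists (114 genes, all matched) were chosen with earlier results of these data known. Values in every library were given for members averaging 100 or more, and from other lists for up to 3 such genes with the largest fold change. Gene ratios and genes at fewer reads were chosen after values were seen.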

Additional observations from a re-analysis of the deposited data

How the results depend on the processing

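The count of members called by limma was 2, with 0.694% of all genes called. It was 10 with DESeq2 and 11 with edgeR on recovered reads (4.37% and 5.06% of all genes), 7 at an average of 100 or more (4.25%), 7 with a pseudocount of 10 (2.83%), 9 with every library required to pass the filter (4.53%) and 3 with quantile normalization, where 5.39% of all genes were called. Without the trended prior it was 1 (2.9%), which was Chst15 (limma adjusted p = 0.0443), while Agrn and Chst11 lost their calls (0.0606 and 0.0577). It was 0 without a filter, where limma called 0 of all genes, and 0 to 1 when a library was left out (1.66% to 4.78%), in fits of 1 library against 2 that take the lone library to vary like the other group and so do not test how stable the calls are. The cause was not tested. Fewer genes were tested under both stricter filters. The count at a ratio of 0.5 or less was 24, 8 at a 4-fold threshold and 17 to 30 when a library was left out, the lowest without luminal 3. The share of all genes under these other settings is not given. The count at a ratio of 2 or more was 2, 0 at an average of 100 or more, 1 with every library required to pass, 1 at a 4-fold threshold and 2 to 6 when a library was left out, 6 without basal 3. The median of the members stayed below 0 in every setting run, from −1.35 without luminal 2 to −0.45 without luminal 3, and was −0.72 with groups at 3 reads or fewer set to 3 reads. Of the log2 fold changes of single members under these settings, 12 lost and 36 gained a call by limma or the other tool, and 17 others moved by more than the spread between replicates. The sign was opposite in 35 of 701 values, from 16 members, none of them among the 26 called by the ratio or limma. The log2 fold change of Dpt, a fibroblast marker, was 1.35 with all libraries, −0.67 without luminal 2 and 3.37 without luminal 3. No paired analysis was possible because the groups share only the replicate number 3. The luminal libraries hold 643267 and 1036689 reads, so a luminal level under 58.1 to 93.5 units was not readable.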
